A study of Mus musculus with 2 samples.

Results

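The hedgehog pathway was described in RNA of entire uteri, taken from 2 pregnant mice at day 4. It was represented by 9 genes, found by symbol in the authors' expression table, which lists 22740 genes: the ligands Ihh, Dhh and Shh, the receptor Ptch1, the inhibitor Hhip, the signal transducer Smo and the transcription factors Gli1, Gli2 and Gli3. All 9 symbols were present. Each library came from 1 animal of strain C57BL/6 and is titled WT. The labels name no treatment, transgene or second group and give no age, so the samples are named by their title numbers, uterus 1 and uterus 2. Levels are the authors' RPKM, reads scaled to the length of the gene model and to the size of the library.

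Hedgehog ligands are secreted proteins that bind Patched 1 on the receiving cell. Without ligand, Patched 1 holds Smoothened inactive. With ligand, Smoothened is released and the GLI proteins switch on target genes, among them Ptch1, Gli1 and Hhip themselves, so that these 3 are commonly used as readouts of the pathway. In the mouse uterus before implantation, Ihh is known as a progesterone-induced gene of the epithelium, and its receptor and targets as genes of the stroma beneath it. The libraries hold the whole organ, so the cell type behind a read was not measured here. In such a sample, fewer cells of a type and less RNA per cell cannot be told apart.

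The regulatory sequence just before the start site is shown for the ligand and for the receptor, the genes at the ends of this contrast. RefSeq promoters (table build GRCm38.p6) were matched for 7 of the 9 members, and those of Shh and Gli1 were not used here. The 2 shown each matched their chromosome once in build NCBIM37, whose coordinates are given. Both genes are on the minus strand, and each run is written 5′ to 3′ along the gene. Capitals mark GC boxes (CCGCCC on either strand), which bind factors of the Sp family. The Ihh stretch is chr1:74998247-74998496. Its nearest base lies 22 bases before the deposited start site. The Ptch1 stretch is chr13:63667044-63667293, and its nearest base lies 216 bases before the deposited start site. The deposited Ptch1 model is 4305 bases long, equal to the coding bases of the longest GENCODE M1 transcript. Its deposited start site is therefore not read as a start of transcription. No GENCODE M1 exon overlaps either stretch.
Ihh: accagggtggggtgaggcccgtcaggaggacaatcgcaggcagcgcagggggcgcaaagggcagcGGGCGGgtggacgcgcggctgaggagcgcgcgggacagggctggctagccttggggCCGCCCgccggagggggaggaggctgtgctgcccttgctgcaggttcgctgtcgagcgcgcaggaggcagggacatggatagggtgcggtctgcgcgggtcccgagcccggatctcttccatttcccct
Ptch1: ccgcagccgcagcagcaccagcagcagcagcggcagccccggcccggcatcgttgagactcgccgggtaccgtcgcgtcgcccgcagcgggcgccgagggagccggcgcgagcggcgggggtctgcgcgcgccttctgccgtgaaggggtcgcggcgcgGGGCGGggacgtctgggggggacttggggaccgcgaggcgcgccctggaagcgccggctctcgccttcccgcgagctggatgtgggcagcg

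Both stretches were rich in G and C, at 72.0% for Ihh and 78.4% for Ptch1, against a median of 52.4% over 32851 RefSeq promoters. Over the full 300 bases of the table, a GC box was found in 6 of the 7 members, all but Smo, and in 35.7% of all promoters. The GLI consensus GACCACCCA, searched on both strands, was in none of the 7 and in 0.253% of all promoters. Its inner letters ACCACCC, which lie within that consensus, were in 1 of the 7, Gli2, and in 4.61% of all. The spaced letters ACANNNTGT of a progesterone response element were in none of the 7 and in 6.85% of all. A match is a description of the letters, and the lack of one says only that they are not in this window.

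At 1 RPKM or more in both uteri, 8 of the 9 members were detected, against 58.4% of all genes. The members spanned a wide range. Smo, Gli1 and Ptch1 formed a high group near 40 to 50 RPKM, Ihh, Gli3 and Gli2 a middle group, and Hhip and Dhh a low one, while Shh was listed at 0. The depth behind them was modest: reads recovered from the RPKM values summed to 3775121 in uterus 1 and 4195650 in uterus 2.

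Ihh, the ligand known from uterine epithelium (NM_010544, chromosome 1, 74991892 to 74998225, minus strand), had 7.58 RPKM from 71 reads in uterus 1, against 10.4 RPKM from 108 reads in uterus 2. Its mean was 8.98 ± 1.98 RPKM (SD, n = 2), which placed it at percentiles 62.4 and 68.9 of all genes. The 95% counting intervals, 5.92 to 9.56 RPKM and 8.52 to 12.5 RPKM, overlapped. The ligand was thus a gene of ordinary level, measured on few reads.

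Dhh was lower. This ligand, known from Schwann cells, endothelium and testis (NM_007857, chromosome 15, 98723458 to 98728971, minus strand), lay at 1.76 and 1.29 RPKM on 16 and 13 reads, a mean of 1.53 ± 0.334 RPKM. Shh, the ligand of limb and neural tube patterning (NM_009170, chromosome 5, 28783380 to 28793641, minus strand), was listed at 0 in both uteri. A listed 0 is not read as absence, because Rpl26, a gene for a ribosomal protein, was also listed at 0. Of the summed RPKM of the ligands, with Shh entered as the listed 0, Ihh made up 81.1% in uterus 1 and 88.9% in uterus 2.

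The ratio of Dhh to Ihh in RPKM was 0.233 in uterus 1, with a counting interval of 0.126 to 0.404. In uterus 2 it was 0.124, with an interval of 0.0641 to 0.222. Both intervals lay under 1, so Ihh exceeded Dhh in each library beyond counting error. Schwann cell markers, listed because nerve is a known source of Dhh, were low: 2 of 5 were detected in both uteri and their sum was 5.42 and 5.94 RPKM. Their defining factor Sox10 lay at 0.385 and 0.520 RPKM, on 4 and 6 reads. Endothelial markers, the other known source, were all detected (5 of 5) and summed to 175 and 171 RPKM. The part of either cell type in the Dhh reads was not tested.

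The coding sequences of the ligands are similar enough to ask whether reads could be shared. In GENCODE M1, aligned bases were 65.9% identical between Ihh and Dhh and 70.7% between Ihh and Shh. The longest run of identical bases was 16 for Ihh and Dhh and 17 for Ihh and Shh. Among the GLI genes the longest run was 25, between Gli2 and Gli3. Read length is not given in the sources used here, so how these runs compare with it was not tested.

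**Figure D1:**
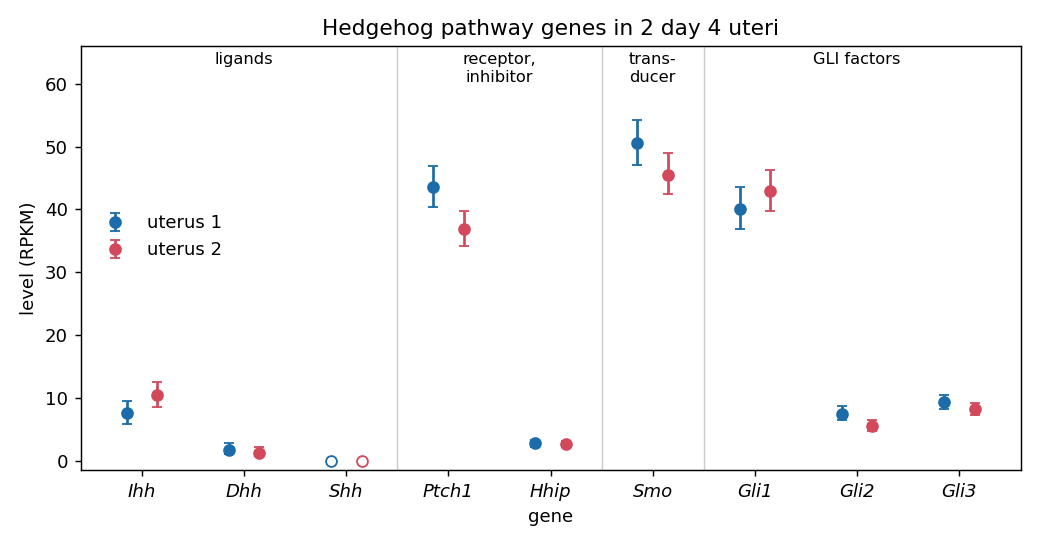
RPKM of each of the 9 members (x axis, grouped by role) in uterus 1 and uterus 2 (y axis, RPKM, linear). Points are single libraries, bars are 95% Poisson counting intervals from recovered reads, and open points are genes listed at 0. Ptch1, Smo and Gli1 lie between 36.9 and 50.5 RPKM in both uteri, far above the 7.58 and 10.4 RPKM of Ihh.

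Ptch1, the ligand's receptor and itself a target (NM_008957, chromosome 13, 63612841 to 63666828, minus strand), had 43.6 RPKM from 719 reads in uterus 1, against 36.9 RPKM from 676 reads in uterus 2. The mean was 40.2 ± 4.71 RPKM (SD, n = 2), at percentiles 93.7 and 92.3. The receptor and target therefore ranked far above the ligand in both animals. Its gene model was 4305 bases long, equal to the coding bases of the longest M1 transcript, so reads from untranslated parts of the mRNA are not in this value.

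Hhip, which binds hedgehog ligands at the surface of the receiving cell and limits their range, is also a target (NM_020259, chromosome 8, 82489750 to 82581907, minus strand). It lay at 2.76 and 2.67 RPKM on 96 and 103 reads, a mean of 2.71 ± 0.0652 RPKM. These 2 targets were far apart in level, Hhip at 0.0633 of Ptch1 in uterus 1 and 0.0723 in uterus 2. The Hhip model was 9078 bases long against 4582 for the longest M1 transcript, and its level per base depends on that choice.

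Smo, the transducer that Patched 1 restrains (NM_176996, chromosome 6, 29685497 to 29711366, plus strand), was the highest member. Its 770 reads in uterus 1 gave 50.5 RPKM and its 771 reads in uterus 2 gave 45.5 RPKM, a mean of 48.0 ± 3.5 RPKM. Both values lay above both values of every other member. Ptch1 stood at 0.863 of Smo in uterus 1 (counting interval 0.778 to 0.956) and 0.810 in uterus 2 (0.729 to 0.899).

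Among the GLI factors, Gli1 was high and Gli2 and Gli3 were low. Gli1, the activator whose own transcription is a readout of the pathway (NM_010296, chromosome 10, 126766938 to 126778635, minus strand), lay at 40.1 and 42.9 RPKM on 563 and 668 reads, a mean of 41.5 ± 1.95 RPKM. Gli3, the main source of GLI repressor (NM_008130, chromosome 13, 15555556 to 15821858, plus strand), lay at 9.29 and 8.23 RPKM on 300 and 295 reads. Gli2, the main GLI activator upstream of Gli1 (NM_001081125, chromosome 1, 120730638 to 120950196, minus strand), lay at 7.50 and 5.57 RPKM on 193 and 159 reads. Gli1 was apart from the other GLI genes in both animals.

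Of the summed RPKM of the GLI genes, Gli1 made up 70.5% in uterus 1 and 75.7% in uterus 2. It stood at 5.34 times Gli2 and 4.32 times Gli3 in uterus 1, and at 7.70 and 5.21 times in uterus 2. Gli1 and Ptch1, the pair of readout genes with high levels, were close: their ratio was 0.921 in uterus 1 (0.823 to 1.03) and 1.16 in uterus 2 (1.04 to 1.29), so the order of the pair changed between the animals.

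By mean level the order was Smo, Gli1, Ptch1, Ihh, Gli3, Gli2, Hhip, Dhh and Shh. In 6 of the 8 steps of this order, both values of the upper gene lay above both values of the next, and 1 of these steps is Dhh over the listed 0 of Shh, which is not read as a difference. The exceptions were Gli1 with Ptch1 and Ihh with Gli3, which did not differ beyond their spread and changed places when only uterus 1 was taken.

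The contrast of the ligand with its receptor, transducer and targets was then taken within each library, so that library size cancels. Ptch1 stood at 5.75 times Ihh in uterus 1 (counting interval 4.5 to 7.44) and at 3.55 times in uterus 2 (2.90 to 4.40). Smo stood at 6.66 times (5.22 to 8.62) and 4.39 times (3.58 to 5.42). Gli1 stood at 5.29 times (4.13 to 6.87) and 4.13 times (3.36 to 5.11). For these 3 genes every interval lay above 1, so the order of receptor, transducer and Gli1 over ligand held in both animals beyond counting error.

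On the log2 scale these ratios averaged 2.18 ± 0.49 for Ptch1, 2.43 ± 0.43 for Smo and 2.22 ± 0.25 for Gli1 (SD, n = 2). Each ratio was smaller in uterus 2, the animal with the higher Ihh. The ratios share Ihh as denominator, so they are not independent of each other.

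Not all genes of the receiving side exceeded the ligand. Gli3 stood at 1.23 times Ihh in uterus 1 (0.943 to 1.61) and 0.792 in uterus 2 (0.633 to 0.997), so it lay above Ihh in 1 animal and below it in the other. Gli2 was at 0.990 of Ihh in uterus 1 (0.751 to 1.32) and 0.536 in uterus 2 (0.417 to 0.691). Hhip lay below Ihh in both, at 0.364 (0.265 to 0.502) and 0.257 (0.194 to 0.339), a mean log2 ratio of -1.71 ± 0.36. With reads set against the longest M1 transcript, that log2 ratio was -0.71, still below the ligand.

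**Figure D2:**
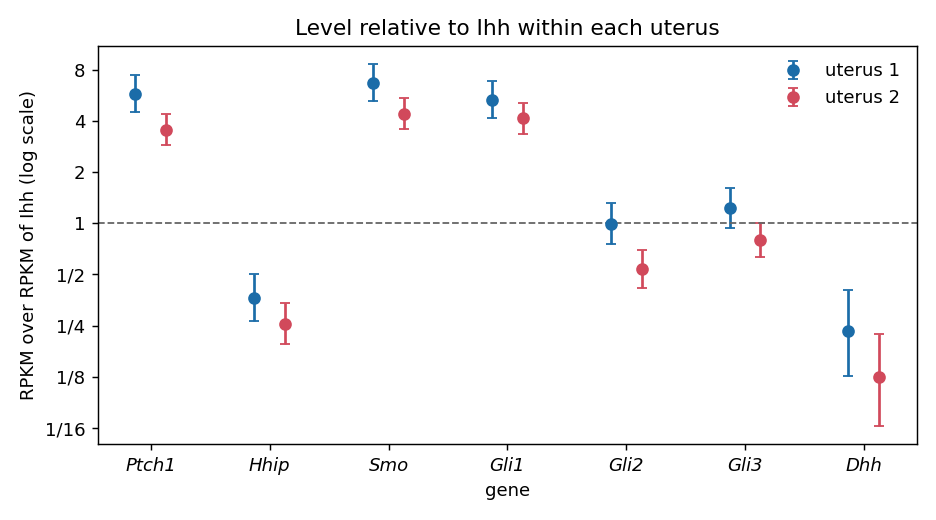
RPKM of each gene over that of Ihh in the same library (y axis, log scale; the dashed line marks equal levels), with 95% exact counting intervals. Ptch1, Smo and Gli1 lie between 3.55 and 6.66 times Ihh, Gli2 and Gli3 near 1 or below, and Hhip and Dhh below 1 in both uteri.

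Levels were also set against markers of the 2 compartments. All 10 epithelial markers and all 10 stromal markers were detected, with list medians of 26.4 and 29.2 RPKM for epithelium and 184 and 194 RPKM for stroma in uterus 1 and uterus 2. Among epithelial markers the claudin Cldn3 was highest at 121 ± 6.45 RPKM and the factor Elf3 lowest at 10.8 ± 0.339 RPKM. Among stromal markers the collagen Col3a1 was highest at 1924 ± 22.1 RPKM and the PDGF receptor Pdgfrb lowest at 35.9 ± 5.43 RPKM.

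Ihh reached 28.7% of the epithelial median in uterus 1 and 35.6% in uterus 2. Ptch1 reached 23.7% and 19.0% of the stromal median, and Gli1 21.8% and 22.1%. Such a fraction depends on which markers are listed. Set against the epithelial median, Ptch1 stood at 165% and 126%.

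Between the animals, Ihh was the member with the largest ratio upward, 1.37 for uterus 2 over uterus 1 with a counting interval of 1.01 to 1.88. The exact binomial test on its reads gave p = 0.0431 and a Benjamini-Hochberg adjusted p of 0.302, so it was not called. Epithelial markers beside it were mixed: 5 of 10 were higher in uterus 2 and 5 lower. Krt18, at 70.4 and 94.3 RPKM, was called higher, with an adjusted p of 6.7e-04 in the exact binomial test. Epcam lay at 26.4 and 33.5 RPKM with an adjusted p of 0.128 in the same exact test, and Cdh1 at 26.4 and 24.9 RPKM. Relative to each of the 10 markers Ihh was higher in uterus 2, by a log2 difference from 0.03 for Krt18 to 0.82 for Krt7. All 10 differences share the Ihh values, so they are not independent of each other, and no counting interval is given for them. Against Epcam the level of Ihh was 28.6% and 31.0%. The part of epithelial content in the difference in Ihh was not tested.

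Of the 8 members with reads, 6 were lower in uterus 2, and their median log2 ratio over a pseudocount of 0.1 RPKM was -0.16, against 0.0007 for the 13647 genes of the whole table that averaged 1 RPKM or more. None of the 8 was at least 2-fold apart, against 2.60% of those genes. The exact binomial test called 1 member at an adjusted p under 0.05, Ptch1, and 4.65% of 15107 genes. At an unadjusted p under 0.05 it marked 4 members, Ptch1, Gli2, Ihh and Smo, and 15.4% of all genes. The test sees counting error only and compares these 2 libraries, with 1 library per animal.

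Ptch1 was lower in uterus 2, at 0.847 of uterus 1 (counting interval 0.761 to 0.942), with an adjusted p of 0.0460 in the exact binomial test. With the smallest reads that the RPKM values allow, the adjusted p was 0.0521, so this call was lost. Stromal markers were mixed: 5 of 10 were lower in uterus 2, and of these Col1a1, Col1a2 and Pdgfrb were called, while 5 were higher, of which Dcn was called. Their median was higher in uterus 2 (184 and 194 RPKM) and their sum lower (5189 and 4879 RPKM), with Col1a1 alone at 1184 and 851 RPKM, and none was at 0. The part of stromal content in the difference in Ptch1 was not tested. Gli2 stood at 0.742 (0.598 to 0.920) with an adjusted p of 0.0905 in the exact test. Gli1, the other high target, stood at 1.07 (0.954 to 1.20), with an adjusted p of 0.674 in the exact test. Ptch1 and Gli1, although both targets, therefore had ratios on opposite sides of 1, and the difference between them was not tested.

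**Figure D3:**
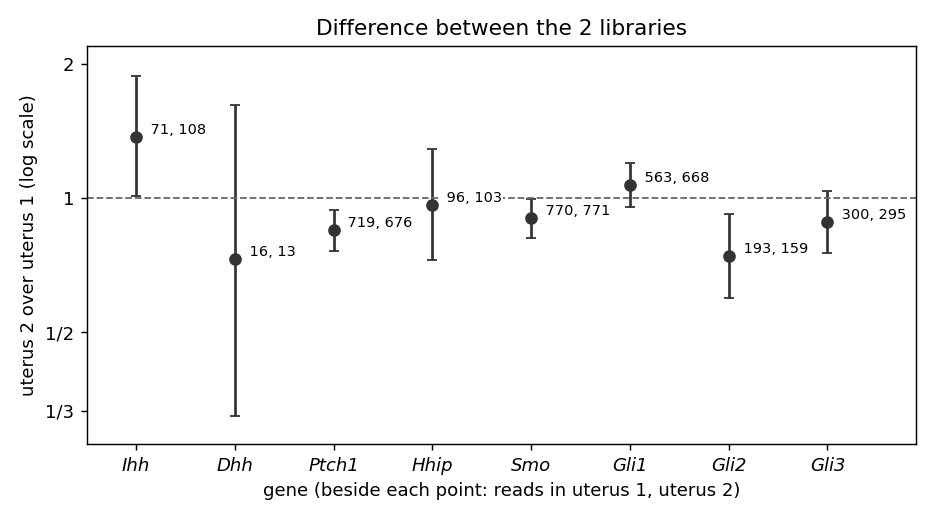
RPKM in uterus 2 over uterus 1 (y axis, log scale; the dashed line marks no difference) for the 8 members with reads, with 95% exact counting intervals and the reads of each library printed beside the point. Ihh has the highest ratio at 1.37, Ptch1 stands at 0.847 on 719 and 676 reads, and the 16 and 13 reads of Dhh leave the widest interval.

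The wider pathway was described by 6 fixed lists of 67 genes. Of these, 59 were detected in both uteri, against 58.4% of all genes. Of the 63 tested, the exact binomial test called 2 higher and 1 lower in uterus 2, a share near the 4.65% of all genes. Their median was 11.1 RPKM in each uterus, against 3.28 and 3.23 RPKM for all genes, with listed zeros kept.

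Genes that process and release the ligand were the lowest list, with 4 of 6 detected and medians of 2.18 and 1.79 RPKM (3.13 and 2.40 RPKM without Disp1, which was listed at 0). The secreted carrier Scube1 was highest at 16.4 and 15.5 RPKM, followed by Scube2 at 4.64 ± 0.247 RPKM. Hhat, which adds palmitate to the ligand, lay at 3.13 and 2.40 RPKM on 34 and 29 reads. Disp1, which releases the ligand from the cell that makes it, has a deposited model that sits on unplaced sequence of chromosome 1 rather than on the chromosome itself, and its relative Disp2 lay at 0.740 ± 0.345 RPKM. None of the 5 tested genes was called.

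All 6 genes of the co-receptor list were detected, with medians of 20.4 and 22.3 RPKM. The endocytic receptor Lrp2, which binds many ligands besides hedgehog, was highest at 87.7 and 105 RPKM. It was called higher in uterus 2, with an adjusted p of 3.1e-19 in the exact binomial test on 5199 and 6884 reads. Gas1, a co-receptor, lay at 65.6 ± 0.710 RPKM and the glypican Gpc3 at 26.8 ± 1.95 RPKM. The co-receptor Boc lay at 13.4 ± 1.58 RPKM.

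All 13 cytoplasmic regulators of GLI proteins were detected, with medians of 17.6 and 18.7 RPKM, and none was called. The kinase Csnk1a1 was highest at 187 ± 8.79 RPKM, followed by Spop, an adaptor for GLI degradation, at 37.4 ± 2.82 RPKM and the protein kinase A subunit Prkacb at 29.1 and 28.3 RPKM. The lowest were Stk36 at 1.60 ± 0.0822 RPKM and Btrc at 4.91 ± 0.224 RPKM. Sufu, which holds GLI proteins in the cytoplasm, lay at 13.2 and 11.3 RPKM, above Gli2 and Gli3 in both uteri.

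Mammalian hedgehog signalling runs through the primary cilium. All 14 cilium genes were detected within a narrow band, from 3.78 to 14.7 RPKM by mean, with list medians of 10.5 and 11.1 RPKM. The transport genes Ift172, Ift52 and the transition zone gene Cc2d2a were highest, at 14.7 ± 0.662, 14.1 ± 0.790 and 13.5 ± 0.673 RPKM. Rpgrip1l and Tctn1, both of the transition zone, were lowest at 3.78 ± 0.524 and 4.93 ± 0.489 RPKM. None of the 14 was called.

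Genes known as hedgehog targets in other tissues were uneven. Of 12, 8 were detected and 3 (Foxl1, Foxf2 and Grem1) were listed at 0, and the medians were 6.47 and 4.52 RPKM with these zeros kept. Over the 9 genes above 0 they were 9.49 and 7.85 RPKM. Cyclin D1, Ccnd1, lay at 41.2 and 35.7 RPKM, close to Ptch1 in both animals. Ccnd2 lay at 18.4 ± 0.630 RPKM and Snai1 at 14.0 ± 2.25 RPKM. Of the 9 with reads, 8 had lower values in uterus 2, though none was called by the exact binomial test. Among all genes 8794 were lower and 8632 higher. The log2 ratio of the 8 that averaged 1 RPKM or more had a median of -0.24, against 0.0007 for all genes so filtered.

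The last list holds genes known to act before or after Ihh in the uterus, of which 14 of 16 were detected, with medians of 25.6 and 23.4 RPKM. Pgr, the progesterone receptor, was highest at 77.5 and 66.4 RPKM and was called lower in uterus 2, with an adjusted p of 8.3e-05 in the exact binomial test. Nr2f2, the stromal nuclear receptor known to lie downstream of Ihh, lay at 57.8 ± 3.15 RPKM. Sox17, an epithelial factor known to act on Ihh, lay at 50.1 ± 2.23 RPKM. These 3, the highest of the list, stood above Ihh in both uteri. So did further genes of the list, whose medians also lay above Ihh, while the rest lay below it.

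The BMP and FGF ligands named here from that list lay below 10 RPKM. Bmp2, which rises in the stroma at implantation, lay at 2.39 and 1.03 RPKM on 23 and 11 reads, and Fgf2 at 6.38 and 2.70 RPKM on 17 and 8 reads. Among list genes that averaged at least 1 RPKM, these 2 were at least 2-fold apart. Over all 6 lists the count was 2 of 59, against 2.60% of all genes so filtered. Neither Bmp2 nor Fgf2 was called, with adjusted p of 0.224 and 0.310 in the exact binomial test. Fgf9 and Fgf18 were lowest, at 0.567 ± 3.9e-04 and 0.938 ± 0.714 RPKM. Fgf9 rested on 9 and 10 reads, so its small SD does not reflect its counting error. Fgf18, below that average, lay at 1.44 and 0.433 RPKM on 6 and 2 reads, with a log2 ratio of -1.53 and an adjusted p of 0.565 in the same exact test. Fgf1, named because it was the other gene of the list that the test called, lay at 5.0 and 8.48 RPKM on 75 and 141 reads, with an adjusted p of 0.00814 in the exact binomial test.

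**Figure D4:**
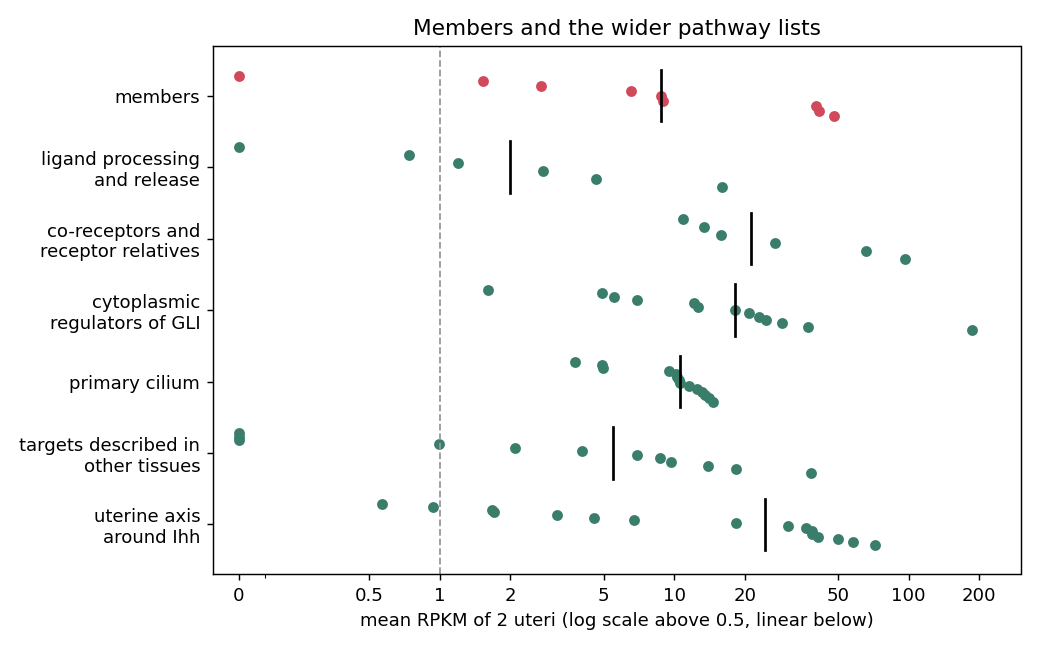
Mean RPKM of the 2 uteri (x axis, log scale above 0.5 and linear below it) for the members and for the genes of each fixed list. Each point is 1 gene, black lines are medians of these means, and the dashed line marks 1 RPKM. The cilium genes form a narrow band from 3.78 to 14.7 RPKM, and genes listed at 0 stand at the left edge.

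Among 113 genes of the pathway and marker lists, those nearest in level over the 2 libraries were found by distance in log2 RPKM with the pseudocount. For Ihh these were Arl13b at a distance of 0.17, Kif3b at 0.33 and Ift80 at 0.40. For Ptch1 they were Ccnd1 at 0.09, Vcan at 0.13 and Spop at 0.16, and for Gli1 Emcn at 0.10, Vcan at 0.12 and Egfr at 0.15. With 2 libraries this is closeness of level and carries no information on joint change.

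The labelled tissue was checked against other cell types. Smooth muscle markers were detected in full (6 of 6), from Smtn at 73.6 ± 0.453 RPKM to Acta2 at 622 ± 43.0 RPKM, so the muscle wall is part of these samples. Of the endothelial markers, Pecam1 was highest at 50.8 ± 0.113 RPKM and Tek lowest at 17.1 ± 0.503 RPKM. Of a list of 5 genes for the embryo, none was detected in both uteri (summed RPKM 2.35 and 1.66, with Cdx2 and Krt5 listed at 0 and Eomes highest at 1.09 ± 0.343 RPKM). Krt5 is a keratin of basal epithelium and bears little on embryo content, and a listed 0 is not read as absence. Of 5 ovary and oviduct markers 3 were detected (sums 18.5 and 21.8 RPKM, from Cyp11a1 at 0.287 ± 0.218 RPKM to Foxl2 at 8.21 ± 0.536 RPKM).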

How the data were processed

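RNA of 2 whole uteri was sequenced as 1 library per animal. The authors deposited RPKM values, per the labels, and the submitters' processing notes name TopHat, edgeR and build mm9 (NCBIM37) without versions or order. Library strand and annotation release are not given in the sources used here. Both deposited tables hold identical RPKM for the 22740 genes. Deposited starts were read as counted from 0: of 20733 genes matched to GENCODE M1, 11970 had a transcript start 1 base after the deposited start and 779 at it.

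Reads were recovered from RPKM. Single-exon genes of known length and the commonest ratio between the libraries gave scaling totals of 3834174 and 4256101. The ratio of every one of 16104 genes above 0 in both matched whole reads (relative tolerance 2e-11), and the model length of 8 members came out whole (tolerance 0.001 bases). A common factor was chosen by closeness (5%) to an M1 transcript length, otherwise the smallest was taken. Smallest possible sums were 3467800 and 3853805. Recovery and test were tested on simulated data.

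Libraries were compared by a two-sided exact binomial test over genes with at least 6 reads in sum, with Benjamini-Hochberg adjustment over all of them (threshold 0.05). Intervals are exact 95% Poisson or binomial intervals of counting error alone; copies made by PCR count as separate reads. Log2 ratios between libraries use a pseudocount of 0.1 RPKM, which understates changes of low genes, and ratios within a library use none. The authors' RPKM scale compares levels per length. Members, lists and tests were chosen with earlier results of these data known. Named were all members, the 3 highest and 2 lowest genes of each pathway list, its genes at least 2-fold apart, the highest and lowest of each marker list, the 3 list genes nearest to Ihh, Ptch1 and Gli1, and a few others chosen after their values were seen (Sufu, Fgf1, Krt18, Krt7, Epcam, Cdh1, Sox10, Dcn, Col1a1, Col1a2 and Rpl26). Foxf1a was matched as Foxf1. Some genes that this rule names are not reported here. A planned comparison of protein sequences was made on GENCODE M1 coding sequences, as no protein table was used here. The alternatives were other thresholds, pseudocounts, filters, centring, gene lengths, smallest reads and single libraries. Python 3.11.15, scipy 1.17.1, pandas 2.3.3 and Biopython 1.88 were used.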

Additional observations from a re-analysis of the deposited data

How the results depend on the processing

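Of 168 recomputed values, 159 had the same direction and call as reported, moved by less than the spread of the 2 libraries or, for counts of genes, stayed within 1.5 times the reported count. Part of this number could not have come out otherwise. A mean of 2 values differs from either by less than its SD by construction. The exact test uses recovered reads, so pseudocount, centring and the lack of a filter could not change its calls. The smallest possible reads could not change a log2 ratio taken from RPKM. With reads set against the longest GENCODE M1 transcript, the log2 ratio of Hhip to Ihh was -0.71 in place of -1.71, since the deposited Hhip model is longer than that transcript. With the smallest possible reads the log2 ratio of Ptch1 between the uteri stayed at -0.24, and its call was lost at an adjusted p of 0.0521 in the exact binomial test. The reads of Ptch1 itself are the same there, and the number of all genes called was 575 in place of 702. Uterus 1 alone exchanged the places of Gli1 with Ptch1 and of Ihh with Gli3. The number of all genes at least 2-fold apart was 355, and 153 with a pseudocount of 1 RPKM, 1846 without a filter and 73 at a mean of 5 RPKM, while the members stayed at 0 under both filters. Members detected were 8 at 0.5 RPKM and 7 at 2 RPKM, where Dhh was lost. Depth limits Dhh and Ihh most, with 13 and 71 reads in the library that held fewer. No paired analysis was possible because all samples form 1 group.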
